A study of Mus musculus with 4 samples.

Results

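Gene pairs that overlap tail to tail are pairs of genes on opposite DNA strands whose transcription runs towards each other, so that their 3′ ends share sequence. For each gene, the opposite-strand gene with the largest exon overlap was taken as its partner, with a minimum of 50 bases, and a gene was kept where the plus-strand partner had both the smaller start and the smaller end. This left 2304 of 50600 annotated genes (4.55%), on the mm10 build. They form 1233 pairs that hold 2450 genes, because a partner that overlaps another gene more is not itself a member. They were compared with 2378 genes whose 5′ ends overlap (head to head) and 2870 genes of nested pairs, in which 1 gene lies within the span of the other. Counts of RNA fragments were available for 4 libraries, biological replicates 1 to 4 of 1 group, from mouse primary cells of strain C57BL/6NJ labelled as T-helper 2 cells, the helper lineage of allergy and worm infection. No treatment is named, age and sex are not given, the labels cite a protocol for differentiating CD4 T cells, and the headers mark every library as Th2 at 0 hr. The samples share 1 donor identifier, and nothing says whether they came from separate mice, so p-values measure the spread between these samples, which may be technical.

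The libraries held 2131288, 2351916, 1923157 and 1452053 counts in replicates 1 to 4. All 7 T cell markers tested had a mean of at least 1 TPM (a count per exon length scaled to the same total in every library). Of 6 Th2 markers 2 reached it, and Il5 and Il13 were at 0. Of 22 markers of B cells, macrophages, erythroid, mast and cytotoxic cells 10 reached it, 2 in each set. Csf1r and Cd68 of macrophages were among these, and Ms4a1, Lyz2, Hbb-bs and Kit among those at 0. Summed over a set, T cell markers had 215 to 345 TPM over the libraries and Th2 markers 9.83 to 19.5. Macrophage markers had 101 to 123.5, B cell markers 57.0 to 65.4 and mast cell and basophil markers 37.8 to 64.3. Erythroid markers had 9.21 to 27.6 and cytotoxic markers 2.35 to 9.18. In bulk RNA, fewer cells of a type and less RNA per cell cannot be told apart. Marker values, at 0 or above it, are for the annotated strand only. The labels name total RNA, while the title of the cited library protocol names poly(A)+ RNA. Fragments were counted for a gene only on the strand it is annotated on. Which read of a pair carries the strand of the RNA in these libraries is not given in the sources used here, so counts were not read as transcript levels.

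The mitochondrial mRNAs, chosen for this after their counts were seen, bear on that strand. Of the 13, mt-Nd6 alone is annotated on the minus strand, and it had 35280, 31774, 33702 and 24273 counts in replicates 1 to 4. The 12 mRNAs of the plus strand, which in mouse mitochondria are known to be far more abundant than mt-Nd6, had between 0 and 3633 counts each over all libraries, and 9391 together. Genes with an opposite-strand exon overlap of at least 50 bases held 85.3% ± 1.05 of all counts (SD, n = 4) with 24.4% of exon length. If the counting strand is the reverse of that of the RNA, the counts of a gene are fragments of RNA from the other strand over its exons. A partner called denser below would then be the one whose exons hold more RNA transcribed from the strand of the other partner. All shares, densities and ratios that follow are for the strand as counted in the deposited tables, and the authors' counting was not redone.

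When converging genes are both transcribed, each polymerase runs into DNA that the other gene uses, and the ends of the RNAs are complementary over the overlap. Such RNAs can pair with each other, and cells hold proteins that bind, edit or cut double-stranded RNA. The end of an mRNA is set by cleavage and polyadenylation, which is guided by a short signal near the end, most often AATAAA and less often ATTAAA. In a strand-specific count, fragments from the shared bases are divided between the partners by strand alone.

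The 3′ ends of the pairs were read from transcript sequences to show where these signals lie. The last 30 bases of both partners are given for 7 pairs described below, 6 of them chosen among the 12 named pairs in which both windows hold a signal and 1 because it holds Foxp3. Each is written 5′ to 3′ on the strand of its gene, as DNA letters from GENCODE mouse release 21, and capitals mark every AATAAA and ATTAAA, which overlap each other in Bysl.
Bcl9l (chr9:44511867-44511896, plus): aggtgcctttttATTAAAaagagaaaattc
Cxcr5 (chr9:44511787-44511816, minus): tttcaaAATAAAaacaggaagatgtcttca
Ilk (chr7:105742896-105742925, plus): ctgtcacAATAAAgtttattatgaaaacag
Taf10 (chr7:105739393-105739422, minus): ttttgAATAAAaaccgttacctgatttgta
Ddx39 (chr8:83726863-83726892, plus): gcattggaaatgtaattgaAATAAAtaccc
Adgre5 (chr8:83723251-83723280, minus): gcattcacAATAAAagtttattcttacatc
Phykpl (chr11:51604460-51604489, plus): tttaaatgtAATAAAaacaaaaccccgtct
Hnrnpab (chr11:51600100-51600129, minus): gttttcttaAATAAAttgagggagaccttg
Ccnd3 (chr17:47599662-47599691, plus): gctgccttAATAAAgatttcggAATAAAgg
Bysl (chr17:47599331-47599360, minus): ttcaaagcAATAAATTAAAatgaccacggc
Serbp1 (chr6:67297707-67297736, plus): aatggttgAATAAAtttatcctatcactgc
Il12rb2 (chr6:67291318-67291347, minus): tctcagctcATTAAActcatttaaagacct
Foxp3 (chrX:7595214-7595243, plus): gtgagcataaagtccctgtgtgatcacccc
Ccdc22 (chrX:7593809-7593838, minus): atcccaAATAAAagagaagttcttctgtgg
In the Bcl9l and Cxcr5 pair the windows are the outer ends of a single stretch of 110 shared bases. In the Foxp3 window neither motif was present.

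Signals at the ends of protein-coding tail-to-tail genes were about as frequent as at all protein-coding genes, while those of other gene types held AATAAA more often. An end that matched a transcript end of release 21 was found for 1611 of 1708 protein-coding members. In the last 50 bases, searched on the strand of the gene only, 928 of them (57.6%) held AATAAA and a further 218 (13.5%) held ATTAAA without it. Over all 19899 protein-coding genes with a matched end, 59.3% held AATAAA and 12.8% ATTAAA without it. Where AATAAA was present its first base lay a median 24 bases from the end in both sets. Of the 580 members of other gene types with a matched end, 35.3% held AATAAA, beside 12.99% of all 27937 genes not annotated as protein-coding. The mix of gene types was not matched between these members and all such genes. No test was made of the shares in this paragraph.

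The overlaps were mostly short beside the genes. Their median length was 373 bases (quartiles 169 and 820), and the longest, between Pstk and Ikzf5, had 4652. In 673 pairs both genes were protein-coding, in 471 only 1 was and in 89 neither was. The genes held in these pairs that are not protein-coding, members or not, were mainly annotated as antisense (337 genes), lincRNA (112) and processed transcript (89). In pairs of protein-coding genes, 54.8% of overlapping bases were untranslated region of both partners and 31.3% were coding sequence of at least 1, by release 21. In 1071 pairs each gene was the largest overlap of the other.

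Tail-to-tail genes held a far larger share of counts than of exon length. They made up 8.57% of exon length and held 40.8%, 34.4%, 41.8% and 37.5% of the counts in replicates 1 to 4, or 38.6% ± 3.39 (SD, n = 4). Head-to-head genes held 11.1% ± 0.610 with 7.43% of exon length, and nested genes held 35.6% ± 4.09 with 8.37%. Replicate 2 was lowest for tail-to-tail genes and highest for nested genes. Without the mitochondrial genes and the 10 genes with the most counts, the tail-to-tail share was 43.8% ± 1.18 and the nested share 27.5% ± 0.600. Among protein-coding genes alone the tail-to-tail share was 52.7% ± 1.88.

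**Figure D1:**
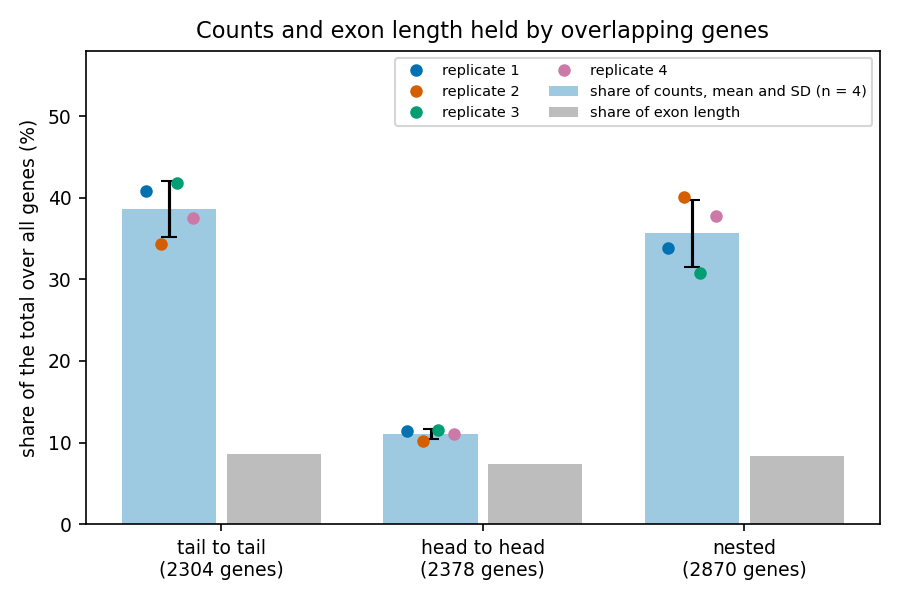
Share of all counts (blue bars, mean and SD of 4 libraries, with 1 point per library) and of all exon length (grey bars), in percent, for genes in tail-to-tail, head-to-head and nested pairs. Tail-to-tail genes held 38.6% of counts with 8.57% of exon length.

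Per exon length, tail-to-tail genes exceeded head-to-head genes in each of the 4 libraries. Their summed counts per exon kb were higher by 1.60 ± 0.05 on the log2 scale (SD, n = 4, exact two-sided sign-flip permutation p = 0.125). That p is the smallest 4 libraries allow, because 2 of 16 sign patterns are the most extreme. Against nested genes the difference was 0.09 ± 0.29, with 2 of 4 libraries higher (p = 0.75 by the same exact permutation), so it was smaller than the spread between libraries. Without the mitochondrial genes and the 10 genes with the most counts it was 0.64, and among protein-coding genes 1.84.

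The median protein-coding gene gave a clearer order. Density was taken as CPM (counts scaled to the same total in every library) per exon kb, with 0.1 added before log2. Its median was 1.94, 1.98, 2.08 and 1.88 over tail-to-tail genes in replicates 1 to 4. It was -0.17, 0.15, 0.03 and -0.35 over head-to-head genes and -1.27, -0.95, -1.36 and -1.42 over nested genes. The groups did not overlap in any library. The median tail-to-tail gene was higher than the median head-to-head gene by 2.05 ± 0.17 and than the median nested gene by 3.22 ± 0.21 (SD, n = 4). Both gave p = 0.125 in the exact permutation of signs. The median gene of 16963 protein-coding genes without opposite-strand exon overlap had 0 counts in every library. Of the 1708 protein-coding members 218 (12.8%) had no count in any library, beside 44.6% of all 21764 protein-coding genes. The share was 24.9% in head-to-head and 29.9% in nested protein-coding genes, and 51.2% in those without opposite-strand exon overlap.

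Count density was higher where the overlap took up more of the gene. Where the overlap was under 5% of exon length, the median of 480 protein-coding members was 1.87 ± 0.238 CPM per exon kb (SD, n = 4). It was 3.68 ± 0.439 at 5 to 10% (362 genes), 5.26 ± 0.384 at 10 to 25% (531 genes) and 7.32 ± 0.589 at 25 to 50% (261 genes). At 50% and over it was 16.5 ± 1.24 (74 genes). Each step was larger than the spread of the medians between libraries. Head-to-head genes did not show the same steps: their medians were 0.778 ± 0.0960, 1.00 ± 0.250, 0.902 ± 0.229, 0.863 ± 0.356 and 1.54 ± 0.537 in the same bins, the last from 33 genes. Exon length divides both the share that sets the bin and the density, and its part in the steps was not tested. Without that division, the median count of a tail-to-tail gene summed over libraries was 90.5 in the lowest bin and 352.5 in the highest. For head-to-head genes it was 37 and 16. The genes of a bin share the library and are not replicates, and no test was made across bins. If the counting strand is the reverse of that of the RNA, RNA of the partner over the shared bases is counted for the gene. The part of this in the steps was not tested.

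**Figure D2:**
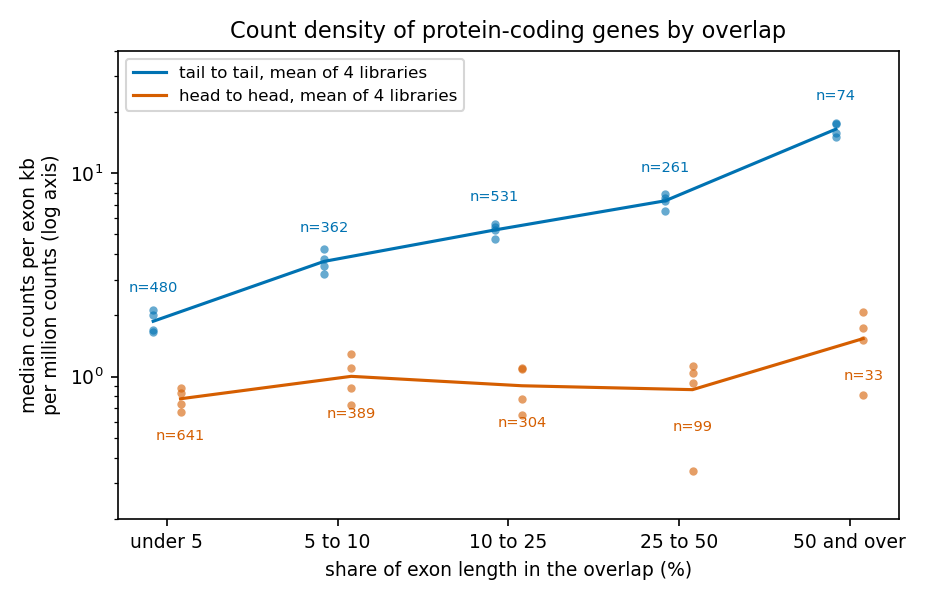
Median CPM per exon kb (log axis) of protein-coding genes, by the share of their exon length that lies in the overlap, with 1 point per library and a line through the mean of 4 libraries. On the strand as counted, the median in tail-to-tail genes went from 1.87 in the lowest bin to 16.5 in the highest. In head-to-head genes it went from 0.778 to 1.54.

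By overlap length the same genes showed a less even order. Their median density was 1.41 ± 0.308 at 50 to 100 bases, 3.17 ± 0.161 at 100 to 200 and 2.87 ± 0.217 at 200 to 500 (SD, n = 4). It was 7.07 ± 0.676 at 500 to 1000 bases and 8.71 ± 0.816 beyond. The pairs nearest the minimum of 50 bases had few counts on both sides of it. At 50 bases were Srpr and Fam118b with 68 and 421 counts over the 4 libraries, Rnf215 and Ccdc157 with 28 and 249, and Pdia6 and Atp6v1c2 with 50 and 3. At 49 bases, outside the set, were Vil1 and Usp37 with 30 and 222, Gm13284 and Gm10581 with 4 and 0, and Tmem150a and Rnf181 with 470 and 29.

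Counts were concentrated in a minority of the pairs. The median pair had 701 counts over both partners and all libraries, and the upper quartile was 2824. In 165 pairs both partners were at 0. Of the 2304 members, 428 were at 0 throughout and 1582 were counted in all 4 libraries. The 100 pairs with the most counts held 51.1% ± 0.536 of the counts of all tail-to-tail pairs (SD, n = 4).

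Within a pair, the counts lay mostly with 1 partner. The partners of 934 pairs with at least 40 summed counts were compared per exon length in 1 fit over all overlapping pairs, with the library as a term. They differed in 854 pairs (91.4%) at an adjusted p of 0.05 (edgeR quasi-likelihood test), beside 91.7% of all 2654 pairs tested, 90.5% of head-to-head and 93% of nested pairs. The share of tail-to-tail pairs called was thus near the background. The denser partner exceeded the other at least 4-fold in 712 of the 854, at least 16-fold in 477 and at least 64-fold in 264. Differences of at least 4-fold were found in 672 of 749 called head-to-head and 786 of 830 called nested pairs. Of the tested tail-to-tail pairs, 73 had at most 3 counts in the weaker partner, where the fitted ratio depends on the prior count and is no bound. The partner with more counts held a median 92.8% of the counts of its pair, beside 93.3% in head-to-head and 95.9% in nested pairs. In tail-to-tail pairs the median SD over libraries of the log2 ratio was 0.56, against a median size of 4.14 for the ratio itself. The ratio kept 1 sign in all 4 libraries in 874 of them. Its median size was 4.64 in head-to-head and 6.52 in nested pairs, and no test was made between arrangements.

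**Figure D3:**
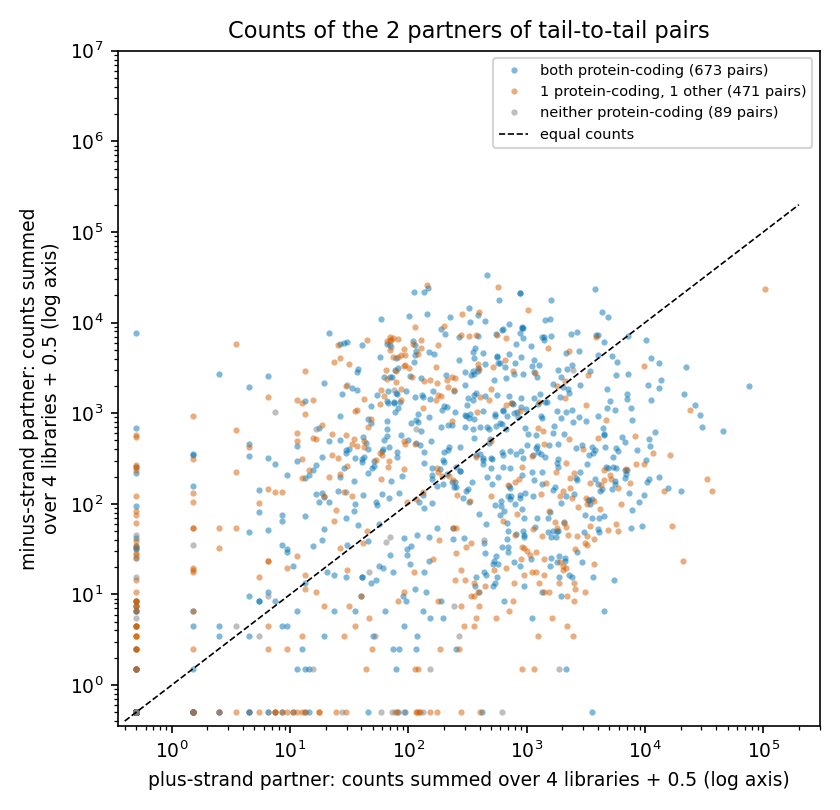
Counts summed over 4 libraries of the plus-strand partner (horizontal) and the minus-strand partner (vertical) of 1233 tail-to-tail pairs, on log axes with 0.5 added, coloured by gene type. Points lie on both sides of the dashed line of equal counts, with a median 92.8% of a pair's counts in the larger partner among the 934 pairs tested.

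Neither strand was favoured. In the 589 pairs of protein-coding genes that were tested, the plus-strand partner was denser in 262 and the minus-strand partner in 263, beside 43.1% and 45.2% of all 1010 such pairs of every arrangement. Per exon length the shorter partner was the denser in 306 of these 525 calls, and by raw counts it had more in 254 of 518. Across these 589 pairs, Spearman's rho between the counts of the partners was between 0.06 and 0.11 in the 4 libraries. Pearson's r on log2 counts was between 0.07 and 0.13. In tested pairs of a protein-coding and another gene, rho was between -0.26 and -0.15. Only pairs that reached the minimum of summed counts were included. That minimum removes pairs low in both partners, which can lower the correlation. These values therefore cannot show whether the counts of partners are related. The partners share a library and the overlapping bases.

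Gene type went with the direction. In 322 tested pairs of a protein-coding and another gene, the other gene was denser in 281 (87.3%), the coding gene in 26 (8.07%), and 15 did not pass the test. The other gene was denser in 81% of all 1502 such pairs of every arrangement, and the coding gene in 12.8%. The median log2 ratio of the other to the coding gene was 6.26 (quartiles 3.56 and 7.89), beside 4.83 in head-to-head and 6.12 in nested pairs. Differences between arrangements were not tested here. If the counting strand is the reverse of that of the RNA, these 281 are pairs in which RNA from the strand of the coding gene, over the exons of the other, was the denser.

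In each of the 8 pairs of protein-coding genes with the most counts, 1 partner was at least 3.76-fold denser than the other. Pmel, which builds the fibrils of pigment granules, had 7256, 7381, 7131 and 4798 counts in replicates 1 to 4. Dgka, a diacylglycerol kinase that restrains T cell receptor signalling, had 243, 515, 311 and 147. Their exons (Pmel at 128704195 to 128720238 and Dgka at 128720134 to 128744855 on chromosome 10) overlap by only 105 bases. Every library was far higher for Pmel than for Dgka, 45.4-fold in summed counts per exon length, with an edgeR adjusted p of 3.0e-11.

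Evl and Degs2 showed the reverse strand order. Evl, an actin regulator of the Ena/VASP family, had 128, 181, 104 and 52 counts in replicates 1 to 4. Degs2, an enzyme of sphingolipid synthesis, had 10022, 9663, 8063 and 5509 and was 53.9-fold denser (edgeR adjusted p = 8.3e-12). They lie on chromosome 12, Evl at 108554720 to 108688513 and Degs2 at 108686792 to 108702306, with 485 bases of exon in common.

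Stard5, a lipid transfer protein, had 14254, 12244, 11024 and 7813 counts in replicates 1 to 4. Il16, which encodes a chemoattractant cytokine for CD4 cells, had 155, 224, 140 and 113. The groups did not overlap, and Stard5 was 103-fold denser (edgeR adjusted p = 3.1e-12). The shared 1202 bases held no untranslated region common to both genes in release 21.

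Tlcd1, a membrane protein of the TLC domain family, had 22010, 19258, 20336 and 13869 counts in replicates 1 to 4, the most of any gene in a pair of protein-coding genes. Rpl23a, a protein of the large ribosomal subunit, had 518, 720, 455 and 296. By raw counts Tlcd1 stood 37.9-fold higher, and per exon length 6.42-fold, since its exons sum to 5009 bases and those of Rpl23a to 847. Ribosomal protein genes have near-identical copies in the genome, which makes counts of Rpl23a uncertain. The part of such copies, or of the counting strand, in these counts was not tested.

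Both Ddx39, an RNA helicase, and Phykpl, an enzyme of amino acid breakdown, were denser than their partners. Ddx39 had 8164, 8031, 7918 and 5278 counts in replicates 1 to 4, while Adgre5, the leukocyte adhesion receptor CD97, had 266, 248, 298 and 149. Phykpl had 8747, 7613, 7955 and 5774 counts, while Hnrnpab, an RNA-binding protein, had 156, 216, 198 and 139. The ratios were 22.3-fold and 12.2-fold per exon length, and both pairs carry an AATAAA at each end, as printed above.

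Taf10, a subunit of the transcription factor TFIID, had 6747, 6500, 6108 and 4358 counts in replicates 1 to 4, and Ilk, the integrin-linked kinase, had 1087, 898, 1080 and 710, over 2106 shared bases. The groups did not overlap, and Taf10 was 3.76-fold denser (edgeR adjusted p = 1.4e-08). The ratio varied little, with an SD of 0.15 on the log2 scale over the 4 libraries.

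Of the 6 pairs of a coding and another gene with the most counts, the other gene was denser in each. Gm26582, opposite to the stress granule protein gene G3bp2, had 9260, 8072, 9863 and 6303 counts in replicates 1 to 4 against 42, 60, 53 and 31. Gm20496 had 7483, 6674, 6480 and 5123, and its partner Psmb8, a subunit of the immunoproteasome, had 17, 44, 52 and 30. The ratios per exon length were 497-fold and 743-fold. Gm26541 stood opposite to Mob3a at 219-fold denser, 1810014B01Rik opposite to the endoplasmic reticulum chaperone gene Hsp90b1 at 34.1-fold, and A930037H05Rik opposite to the ubiquitin ligase gene Rnf213 at 80.8-fold.

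**Figure D4:**
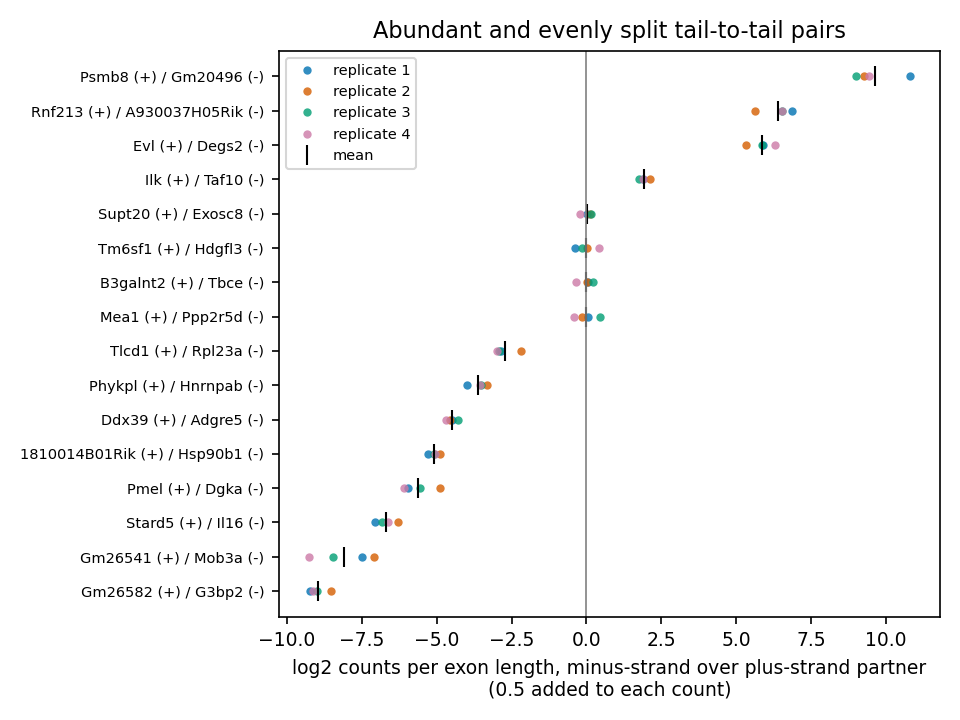
Log2 ratio of counts per exon length, minus-strand over plus-strand partner, for most of the tail-to-tail pairs named for the most counts and the 4 most evenly split pairs of at least 400 counts, with 1 point per library and a bar at the mean. The ratios run from -8.97 for Gm26582 and G3bp2 to 9.62 for Psmb8 and Gm20496, and the points of a pair lie close together beside that range.

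The largest ratios between protein-coding partners came from genes with almost no count of their own. Gemin4, a subunit of the SMN complex, had 0 counts in every library over 2875 shared bases, while Fam57a had 1044, 912, 947 and 694. Fam57a was therefore at least 677-fold denser, taking 3 counts over the group as the limit for a gene at 0. Gm44503, annotated as protein-coding, was also at 0, and its partner Pigb, an enzyme of GPI anchor synthesis, had 2166, 2041, 2243 and 1304 counts and was at least 1086-fold denser. Phospho1, a phosphatase of bone mineralisation, was at 0 too, and Abi3, an actin regulator, had 150, 180, 193 and 155 and was at least 110-fold denser. Tdrkh, of the piRNA pathway, had 2 counts in all and Oaz3, an ornithine decarboxylase antizyme of the testis, had 884, 672, 763 and 414. Nr1i3, a nuclear receptor of the liver, had 1244, 1229, 1241 and 783 counts, and Tomm40l, a mitochondrial import protein, had 6 in all. Tmem116 had 2140 in all and Gm42878 had 1.

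At the other extreme, 92 of the 589 tested pairs of protein-coding genes lay within 2-fold. Supt20, a subunit of the SAGA complex, had 197, 291, 288 and 188 counts in replicates 1 to 4, and Exosc8, of the RNA exosome, had 139, 217, 220 and 112. Their log2 ratio per exon length was 0.02 ± 0.16 (SD, n = 4, edgeR adjusted p = 0.93). Tbce, a tubulin chaperone, had 532, 571, 627 and 351 counts and the glycosyltransferase gene B3galnt2 418, 459, 437 and 366, at -0.02 ± 0.24. Ppp2r5d, a regulatory subunit of phosphatase 2A, had 463, 418, 417 and 242 and Mea1 128, 134, 88 and 93, at -0.03 ± 0.36. For Tm6sf1 and Hdgfl3 the ratio was -0.02 ± 0.34. These 4 pairs were picked for their small ratio. By raw counts, 3 of them differed (adjusted p of 0.034 for Supt20 and Exosc8, 0.021 for Tm6sf1 and Hdgfl3, and 5.6e-06 for Mea1 and Ppp2r5d by edgeR).

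Genes known from T cells and from basic cell functions were looked up in 8 lists. Of all protein-coding genes 7.85% were tail-to-tail members. Of the 1406 protein-coding members tested against their own partner, the partner was denser for 54.2% and the member for 36.4%. With a protein-coding partner these shares were 45.1% and 44.2%, and with another partner 87.5% and 8.25%. The lists hold few members, no test was made of them, and their counts are to be read beside these shares.

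Genes of the T cell receptor pathway had 4 members among 39 (10.3%), with the partner denser for 3 of them. Zhx3, a zinc finger repressor opposite to Plcg1, the phospholipase that relays the receptor signal, had 3199, 3205, 3419 and 2271 counts in replicates 1 to 4, and Plcg1 had 73, 128, 128 and 60. Zhx3 was 18.4-fold denser (edgeR adjusted p = 9.9e-11). Esrp2, a splicing factor of epithelia opposite to Nfatc3, a factor activated by calcium, had 469, 483, 413 and 218, and Nfatc3 had 12, 45, 48 and 24. 4930519F09Rik had 657, 691, 653 and 342, and its partner Themis, needed for thymocyte selection, had 28, 57, 29 and 38. Each of these partners was above the T cell gene in every library.

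Cd247, the zeta chain of the receptor complex, was the exception, by a small margin that rested on the scale. It had 1259, 1368, 1504 and 724 counts in replicates 1 to 4 (chromosome 1, 165788681 to 165877277), and its partner Pou2f1, an octamer-binding factor, had 2874, 3600, 3003 and 1905. Per exon length Cd247 was 1.33-fold denser, with a log2 ratio of Pou2f1 to Cd247 of -0.39 ± 0.19 (SD, n = 4, edgeR adjusted p = 0.017). By raw counts Pou2f1 was higher, by 1.24 on the log2 scale (adjusted p = 3.0e-06), as its exons sum to 16597 bases and those of Cd247 to 5329. Without replicate 1 or 3 the difference per exon length did not pass the test (adjusted p = 0.052 and 0.11).

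Among 37 genes of helper lineages and cytokines 5 (13.5%) were members. Foxp3, the regulator of regulatory T cells, had 1127, 1144, 1065 and 768 counts in replicates 1 to 4. Ccdc22, a subunit of an endosomal sorting complex on the other strand, had 14, 18, 9 and 28. Their exons share 590 bases between 7593809 and 7595243 on chromosome X, and Foxp3 was 51.1-fold denser (edgeR adjusted p = 6.7e-10). Eomes, a factor of Th1 and cytotoxic cells, had 2, 8, 0 and 14 counts and its partner Gm33460 had 24, 25, 6 and 31. Il16 was given above, and Ikzf2 of regulatory T cells, at 7 counts, had too few to be tested.

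Among 40 genes of cytokine receptors and their signalling 6 (15%) were members. Csf1r, the macrophage growth factor receptor, had 771, 673, 681 and 555 counts in replicates 1 to 4, and its partner Hmgxb3 had 15, 10, 2 and 2. Of the other macrophage markers tested, Cd68 had 4.60 ± 2.84 TPM and Itgam 0.349 ± 0.259 (SD, n = 4), while Lyz2 and Adgre1 were at 0 in every library. The part of macrophages in the counts of Csf1r, itself at 107 ± 10.7 TPM, was not tested. Tyk2, a Janus kinase, had 29, 31, 11 and 17 counts against 1280, 1139, 987 and 753 for 1700084C06Rik on the other strand. Csf1r was 96.5-fold denser than its partner, and Tyk2 was 433-fold less dense than its own (edgeR adjusted p = 8.4e-10 and 5.2e-12).

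Smaller ratios were found at receptors and STAT genes. Cxcr5, the receptor that directs T cells to follicles, had 135, 101, 87 and 69 counts in replicates 1 to 4, and Bcl9l, a coactivator of beta-catenin, had 37, 84, 63 and 30. Il12rb2, a chain of the interleukin-12 receptor, had 77, 89, 51 and 33, and Serbp1, an mRNA-binding protein, had 204, 255, 190 and 74. Cxcr5 was 4.40-fold and Il12rb2 1.83-fold denser (edgeR adjusted p = 6.3e-05 and 0.0054). By raw counts the direction at Il12rb2 was the opposite, with 2.89 times as many for Serbp1, since the exons of Serbp1 sum to 20117 bases.

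Stat5a and Stat3, which carry signals of many interleukins, form a pair with each other, with 72 bases in common on chromosome 11. Stat5a had 55, 43, 24 and 13 counts in replicates 1 to 4 and Stat3 had 63, 83, 85 and 51. Their log2 ratio per exon length, Stat3 over Stat5a, was 0.80 ± 0.81 (SD, n = 4) and did not pass the test (edgeR adjusted p = 0.088). Without replicate 1 the fitted ratio was 1.13 (adjusted p = 0.039), and with no replicate block it was 0.68 (adjusted p = 0.045), beside 0.77 in the fit with all libraries and the block.

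**Figure D5:**
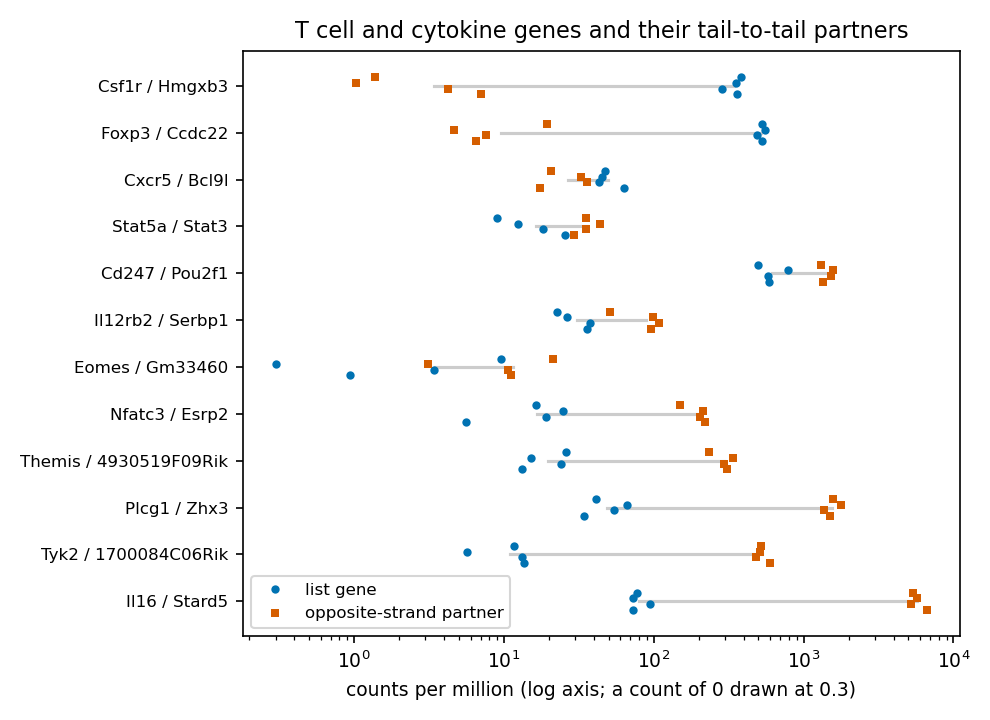
CPM (log axis) of the genes of 3 lists, T cell receptor signalling, helper lineage and cytokine signalling (blue circles), and of their tail-to-tail partners (orange squares), with 1 point per library. Stat5a and Stat3 are both list genes. Foxp3 and Csf1r lie right of their partners and Il16, Tyk2 and Plcg1 far left.

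Genes that sense or process double-stranded RNA, the kind of RNA that overlapping ends can form, were tail-to-tail members in 6 of 26 cases (23.1%), a share near those of the DNA repair and cell cycle lists below. The partner was denser in all 6, of which 2 have a non-coding partner. Adar, which edits double-stranded RNA, had 45, 43, 37 and 18 counts in replicates 1 to 4. Its partner Chrnb2, a subunit of the neuronal acetylcholine receptor, had 3644, 3191, 3312 and 2238 and was 83.9-fold denser (edgeR adjusted p = 4.6e-12). Ago2, the slicing Argonaute, had 69, 71, 84 and 51 against 884, 846, 997 and 511 for Chrac1. Dgcr8, the partner of Drosha in microRNA processing, had 46, 33, 23 and 18 against 531, 609, 632 and 358 for Trmt2a, a tRNA methyltransferase. Ilf2 had 234 counts in all against 733 for Snapin, and Dhx58 had 6 against 713 for Dhx58os.

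The machinery that forms 3′ ends had 4 tail-to-tail members among 24 (16.7%). Of the 24, 20 had a mean of at least 1 TPM on their annotated strand, with a median of 3.25 TPM. Cpsf7, of cleavage factor I, had 18, 42, 35 and 19 counts in replicates 1 to 4 against 1732, 1521, 1412 and 1022 for the ciliary gene Tmem216. Fip1l1, of the cleavage and polyadenylation specificity complex, had 98, 131, 86 and 46 against 581, 416, 354 and 249 for Lnx1, a ubiquitin ligase. Tmem216 was 90.9-fold and Lnx1 15.2-fold denser (edgeR adjusted p = 3.6e-11 and 3.0e-09). Cstf2 had 82 counts in all and its partner Nox1 had 1147. Pcf11, which couples cleavage to the end of transcription, had 454 and was denser than its partner 6430511E19Rik with 93. Pcf11 is also the largest overlap of Gm26944, which had 1398 counts and was 38.1-fold denser than Pcf11.

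Cell cycle genes had 8 members among 38 (21.1%), denser than the partner in 5 cases and less dense in 3. Cyclins lay on both sides. Ccnd3 had 64, 97, 48 and 59 counts in replicates 1 to 4, while Bysl, a ribosome assembly factor, had 2012, 1969, 1786 and 1221 and was 59.4-fold denser (edgeR adjusted p = 2.1e-11). Ccnd2 had 242 counts in all and its partner Gm43126 had 6936. Conversely Ccna2 had 1285 and its partner Exosc9 75, Ccne2 had 1520 and Ints8 69, and Cdk4 had 1671 and Tspan31 142. Rb1, the retinoblastoma protein that holds cells in G1, had 950, 1016, 814 and 600 counts against 341, 318, 366 and 245 for Rcbtb2 and was 4.20-fold denser.

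DNA repair genes had 10 members among 47 (21.3%), denser than the partner in 4 cases and less dense in 4, while 1 did not pass the test and 1 was not tested. Fanca, of the interstrand crosslink pathway, had 1270, 1197, 1242 and 843 counts in replicates 1 to 4 against 44, 43, 47 and 31 for Zfp276, a ratio of 17.4-fold that varied by an SD of 0.05 on the log2 scale. Lig3, a DNA ligase, had 152, 184, 151 and 69 against 1140, 1183, 1128 and 810 for Rffl. Apex1, the main nuclease of abasic sites, had 92, 88, 94 and 76 against 1404, 1184, 1264 and 901 for Pip4p1. Rad54l, of homologous recombination, had 1891 counts in all, with 33 for its partner Lrrc41. Ercc1 and Cd3eap had 488 and 516 counts and did not pass the test.

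In the list of stress response genes and aminoacyl-tRNA synthetases, Ddit3 and Mars form a pair. Ddit3, the stress factor CHOP, had 234, 198, 287 and 195 counts in replicates 1 to 4, and Mars, the methionyl-tRNA synthetase, had 51, 55, 64 and 35. They share 68 bases on chromosome 10, and Ddit3 was 8.91-fold denser (edgeR adjusted p = 4.7e-08). Over all 8 lists there were 45 memberships, with the list gene denser in 16, the partner in 23, and 3 each not past the test or not tested. A gene of a pair within a list counts once for each gene.

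The longest overlaps did not go with even counts. Pstk, a kinase of selenocysteine synthesis, had 1991, 1894, 1836 and 1107 counts in replicates 1 to 4 over 4652 shared bases. Its partner Ikzf5, of the Ikaros family, had 63, 69, 81 and 24, so that Pstk was 20.8-fold denser (edgeR adjusted p = 1.5e-10). Mrps25, a mitochondrial ribosomal protein, was 24.9-fold denser than the nuclear receptor gene Nr2c2 over 4590 shared bases. Tmc3 was 2.22-fold denser than Gm16638 over 3961.

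Ratios that varied most between libraries belonged to pairs with few counts in 1 partner. Acot8, a peroxisomal thioesterase, had 0, 0, 0 and 9 counts in replicates 1 to 4 against 589, 539, 494 and 335 for Snx21, a sorting nexin. Tmem198b had 0, 2, 0 and 10 against 216, 269, 301 and 156 for the metalloproteinase gene Mmp19. Ptpn9, a tyrosine phosphatase, had 3, 15, 0 and 24 against 122, 103, 92 and 108 for Gm10658, and Fam219a had 0, 0, 11 and 1 against 150, 123, 102 and 69 for Fam219aos. In 3 of these 4 pairs replicate 4, the library with the fewest counts, held the most counts of the weaker partner.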

How the data were processed

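The deposited tables give raw counts of fragments per gene, 1 table for each of 4 libraries. FeatureCounts 1.4.6-p4 made them from exons of GENCODE mouse release 13 with strand setting 1, keeping fragments with both ends aligned, per the file headers. The BAM file names point to STAR, per the file headers, and the build is mm10, per the labels. A fragment over the overlap goes to 1 partner by strand. The other deposited column used was exon length in bases.

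Exon overlaps were computed from the table coordinates with bedtools 2.31.1. Symbols and gene types came from GENCODE release 21 (50376 of 50600 genes matched). Partners were compared with edgeR 4.0.16 in R 4.3.3, with 1 row per pair and 8 columns (both partners in each library), library as a term, and TMM library size and exon length as offset. Pairs needed 40 summed counts, and p-values were adjusted by Benjamini-Hochberg over all 2654 pairs. Pairs that share a gene are not independent. Per-library log2 ratios added 0.5 to each count, and folds used summed counts. Pairs were simulated with the summed counts of the 2654 pairs, 100 with a 2-fold difference, 100 with 4-fold and the rest with none. The fit recovered 81% of the 2-fold and 88% of the 4-fold differences, and 2.87% of its calls were false. The spread was set and not taken from the data, and most real pairs were called, so these rates do not carry over to them. DESeq2 1.42.0 was an alternative. Other tests were exact sign-flip permutations over libraries. No library was a copy of another: chi-square per degree of freedom was 6.29 to 24.8 for the 6 pairs. Intervals of counting alone are not given, because no molecular identifiers mark which fragments are copies.

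The members and gene lists were chosen with earlier results of these data known. Pairs were named by a rule: highest summed counts, largest and smallest ratio, list members, longest overlap and largest spread. Of 55 pairs it named, some are not reported here. Partners given by counts in all and pairs beside the 50-base minimum came from the same lists and rule. Strand signal tracks were not used here. Counts of mitochondrial mRNAs by strand and the shares of members denser or less dense than their partner were added after the data were seen.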

Additional observations from a re-analysis of the deposited data

Results flagged for a closer look

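Of 61 sets of 4 values tested for a library far from the other 3, 2 stood out, and chance gives about 1 in 20. The sets include the pairs named for the largest spread of their ratio, among them Acot8 and Snx21. That rate does not hold for those pairs. The log2 ratio of Acot8 to Snx21 per exon length was -3.89 in replicate 4 and between -8.95 and -8.69 in the others, where Acot8 had 0 counts. The log2 ratio of Esrp2 to Nfatc3 was 6.67 in replicate 1, with 12 counts of Nfatc3, and between 4.53 and 4.84 in the others.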

How the results depend on the processing

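The number of tail-to-tail pairs with a called difference was 854 and lay between 640 and 874 under the alternatives that keep all libraries, and between 822 and 836 without 1 library in turn. With no minimum beyond 1 summed count, 874 of 1068 pairs were called, and with DESeq2 853 of 934. Without the library as a term (no replicate block) 867 were called. No paired analysis across groups was possible because there was 1 group. The count of pairs with the non-coding partner denser was 281 and lay between 220 and 293 under the alternatives, and between 273 and 279 without 1 library in turn. The share of counts in tail-to-tail genes moved from 38.6% to 32.5% with overlaps of at least 200 bases, to 43.8% without mitochondrial genes and the 10 genes with most counts, and to 52.7% for protein-coding genes. It was 37.5 to 40.04% without 1 library in turn. The difference in summed density from nested genes changed sign, to -0.13 with overlaps of at least 200 bases and to -0.021 without replicate 3, and ranged up to 0.20 without replicate 2. Differences in the median gene kept their sign under every alternative run, and with a pseudocount of 1 they were 1.38 against head-to-head and 1.87 against nested genes. Of 55 named pairs, 49 kept their side of the threshold under every alternative run, and those called also kept their direction. For pairs not called, the direction was not compared. With raw counts, 2 called pairs changed direction, Cd247 and Pou2f1 (1.24) and Serbp1 and Il12rb2 (-1.50). The depth of 1452053 to 2351916 counts limits partners with few counts, where 1 library can set the ratio.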
